A study of Homo sapiens with 12 samples.

Results

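SLFN5, SLFN11, SLFN12 and SLFN13 of the Schlafen family, together with SAMD9 and SAMD9L, were followed through 12 RNA-seq libraries of cultured human melanoma cells. These 6 genes were taken by symbol from a table of 44700 genes, and all 6 had rows in every library. Of the 6, 5 reached the read minimum for testing, as did 15810 genes in all, and SLFN11 did not. SK-MEL-5 and MALME-3M are established human melanoma lines, labelled wild type here. Each line was sampled without treatment and after 24 h of interferon gamma (IFN-gamma) added at seeding, in 3 wells per condition, which made 4 groups of 3 libraries. IFN-gamma was given at 150 ng/mL to SK-MEL-5 and at 200 ng/mL to MALME-3M, and the lines were grown in different media with different amounts of serum. Line, dose and medium therefore cannot be told apart in any comparison between the lines. Nothing in the sources says that the wells were separate experiments, so p-values measure the spread between wells only.

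Schlafen proteins share an N-terminal core domain, which cleaves RNA in some members, and many of the genes are induced by interferons. The longer members, among them SLFN5, SLFN11 and SLFN13, carry an additional helicase-like domain, whereas SLFN12 lacks it. SAMD9 and SAMD9L are neighbouring paralogs, large cytoplasmic proteins that restrict poxviruses and slow translation and cell growth when active. IFN-gamma acts through JAK kinases and factors that bind GAS elements, and through IRF factors, which bind interferon-stimulated response elements (ISRE).

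The Schlafen cluster lies on chromosome 17 and the SAMD9 pair on chromosome 7 of GRCh38, in the GENCODE 29 annotation. SLFN5 (ENSG00000166750.9) is on the plus strand at chr17:35243036-35273655. SLFN11 (ENSG00000172716.16), at chr17:35350305-35373701, SLFN12 (ENSG00000172123.12), at chr17:35411060-35433283, and SLFN13 (ENSG00000154760.13), at chr17:35435096-35448837, are on the minus strand. SLFN12 and SLFN13 are separated by 1812 bases. SAMD9 (ENSG00000205413.7), at chr7:93099513-93118023, and SAMD9L (ENSG00000177409.11), at chr7:93130055-93148369, are both on the minus strand with 12031 bases between them.

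The promoters are shown because SAMD9, SAMD9L and SLFN12 rose in both lines and SLFN11 stayed near the limit of detection. RefSeq promoter entries (GRCh38.p14) were given for SLFN11, SLFN12, SAMD9 and SAMD9L, and SLFN5 and SLFN13 had none. The 250 bases before each RefSeq start were searched on both strands for GAS (TTCNNNGAA), an ISRE core (GAAANNGAAA) and a relaxed ISRE core (AAANNGAAAC, chosen after the sequences were seen), motifs that can overlap one another. Capitals mark the matches, and each sequence is printed 5′ to 3′ on the minus strand as far as the GENCODE gene start or, for SAMD9L, the RefSeq start, which lies upstream of it. The stretches are chr7:93118024-93118229 for SAMD9, chr7:93148386-93148635 for SAMD9L, chr17:35433284-35433424 for SLFN12 and chr17:35373702-35373871 for SLFN11.
SAMD9: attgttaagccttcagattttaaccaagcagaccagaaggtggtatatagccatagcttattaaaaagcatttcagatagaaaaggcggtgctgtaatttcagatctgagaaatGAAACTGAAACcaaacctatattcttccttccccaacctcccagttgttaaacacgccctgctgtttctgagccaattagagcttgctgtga
SAMD9L: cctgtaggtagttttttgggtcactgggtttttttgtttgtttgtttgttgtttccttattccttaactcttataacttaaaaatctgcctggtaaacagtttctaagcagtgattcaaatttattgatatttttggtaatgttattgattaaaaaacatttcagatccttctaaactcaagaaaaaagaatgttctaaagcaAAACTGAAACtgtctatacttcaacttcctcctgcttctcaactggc
SLFN12: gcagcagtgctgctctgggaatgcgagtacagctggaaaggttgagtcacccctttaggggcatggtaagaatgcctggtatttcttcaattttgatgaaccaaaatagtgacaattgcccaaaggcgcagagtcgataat
SLFN11: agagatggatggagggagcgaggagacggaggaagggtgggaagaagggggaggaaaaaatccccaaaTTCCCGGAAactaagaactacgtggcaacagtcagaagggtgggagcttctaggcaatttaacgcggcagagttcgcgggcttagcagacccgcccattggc

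SAMD9 held overlapping matches to the ISRE core (positions -136 to -127 from the RefSeq start) and the relaxed core (-135 to -126). SAMD9L held no match to the ISRE core and held the relaxed core at -47 to -38, so that both paralogs carry AAACTGAAAC before their starts. SLFN11 held 1 GAS match, at -182 to -174, and SLFN12 held none of the 3 motifs in this window. Of 35116 promoters in the table, 6.57% held GAS, 3.02% the ISRE core and 1.82% the relaxed core. As the relaxed core was chosen after these sequences were seen, its share cannot weigh their matches to it. A match describes letters only, and no binding was measured.

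Gene counts summed to between 15514412 and 22921184 per library, and levels are given as CPM, the count scaled to the library total. All 8 melanocyte-lineage markers had counts in every group, and their summed level was 5743 to 6426 CPM in all libraries. Single markers differed between untreated SK-MEL-5 and MALME-3M: TYRP1 had 517 and 6.88 CPM, DCT 2474 and 974, and TYR 266 and 438. PMEL had 1464 and 2914 CPM and S100B 167.5 and 646.5. MITF (601 and 590), SOX10 (270 and 277) and MLANA (471 and 450) were closer. Summed immune-cell markers were at most 1.5 CPM and endothelial markers at most 1.80 CPM. Fibroblast markers, mostly LUM, summed to 130 to 189 CPM in SK-MEL-5 and 15.3 to 19.5 CPM in MALME-3M, while epithelial markers, mostly CDH1, summed to 1.18 to 10.5 CPM in SK-MEL-5 and 321 to 401 CPM in MALME-3M. The part of these marker differences in the line differences below was not tested.

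By the edgeR test SLFN5, SLFN12, SAMD9 and SAMD9L rose with IFN-gamma in SK-MEL-5 and SLFN12, SAMD9 and SAMD9L in MALME-3M. SLFN13 was also called in SK-MEL-5, which made 5 calls, but on very few reads: it reached the read minimum through MALME-3M and dropped out when SK-MEL-5 was fitted by itself, which left 4. IFN-gamma lowered no tested member in either line (0 also at an unadjusted p under 0.05 and 0 with DESeq2). The largest rise in both lines was that of SAMD9L, 7.52-fold and 5.76-fold. SAMD9 rose 1.98-fold and 1.48-fold, SLFN12 1.42-fold and 1.54-fold, and SLFN5 passed in SK-MEL-5 alone, 1.53-fold, and the difference between the lines itself passed. Among all genes tested, 5.98% were higher and 7.05% lower at an adjusted p under 0.05 in SK-MEL-5, and 9.51% were higher and 8.77% lower in MALME-3M (edgeR quasi-likelihood test). The groups did not overlap in CPM for 5 of the 5 tested members in SK-MEL-5 and for 4 of 5 in MALME-3M, against 29.1% and 33.1% of all tested genes. The SK-MEL-5 count includes SLFN13, on 6 against 23 counts and tested only through MALME-3M. SLFN11, which was not tested, overlapped in both lines. As these are bulk libraries, more cells expressing a gene and more RNA per cell cannot be told apart.

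**Figure D1:**
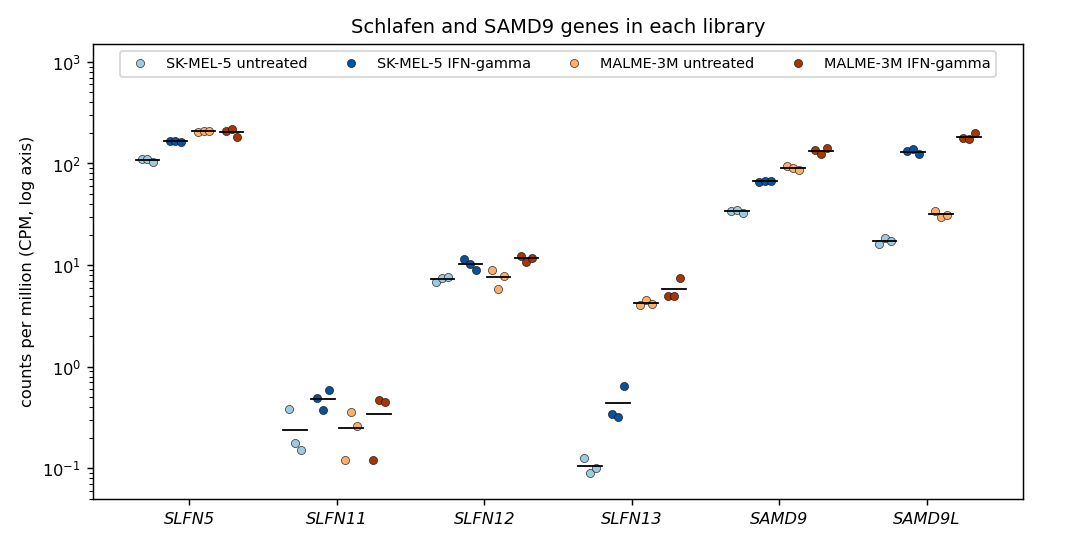
CPM of the 6 genes (log axis) in each of the 12 libraries, coloured by line and treatment, with bars at the mean of 3 libraries. SAMD9L moves from 16.2 to 34.3 CPM without treatment to 123 to 199.8 CPM with it, and SLFN11 stays under 0.6 CPM everywhere.

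SAMD9L, an antiviral and growth-restraining protein, gave the strongest response. In untreated SK-MEL-5 its level was 16.2, 18.6 and 17.1 CPM, and with IFN-gamma 132, 138 and 123 CPM. Every treated library was far above every untreated one, with a log2 fold change of 2.91 ± 0.077 (SE) and an edgeR adjusted p of 6.4e-16. In MALME-3M the level was 34.3, 29.8 and 31.4 CPM without treatment and 177, 173 and 199.8 CPM with it. There too the groups were wide apart, with a log2 fold change of 2.53 ± 0.074 (adjusted p = 3.1e-15).

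SAMD9, its paralog and likewise a restriction factor for poxviruses, moved less. Its level in SK-MEL-5 was 34.2, 34.5 and 32.5 CPM without treatment and 66.1, 67.2 and 66.5 CPM with it, a log2 fold change of 0.98 ± 0.060 (adjusted p = 3.4e-10). In MALME-3M it was 94.1, 90.7 and 85.6 CPM without treatment and 136, 123 and 141 CPM with it, a log2 fold change of 0.57 ± 0.056 (adjusted p = 5.3e-07). Groups did not overlap in either line. Untreated MALME-3M already stood above treated SK-MEL-5 in this gene.

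By gene counts the pair therefore changed order with treatment in both lines. Levels of different genes are compared here as CPM per kb of annotated exon. On that scale the ratio of SAMD9L to SAMD9 within a library was 0.456, 0.518 and 0.507 in untreated SK-MEL-5 and 1.92, 1.97 and 1.77 with IFN-gamma. In MALME-3M the ratio was 0.351, 0.316 and 0.352 without treatment and 1.25, 1.35 and 1.37 with it. By gene counts SAMD9L was thus the lower of the pair in all 6 untreated libraries and the higher in all 6 treated ones. Transcript-level estimated counts, not scaled by length, put it lower in treated MALME-3M: 1088, 1377 and 1581 against 1308, 1689 and 1822. In treated SK-MEL-5 they put it higher, at 890.9, 975.4 and 744.5 against 810.3, 813.4 and 647.9. In treated MALME-3M estimated counts were 36.5% of gene reads for SAMD9L and 60.0% for SAMD9. The ratio had no test of its own.

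**Figure D2:**
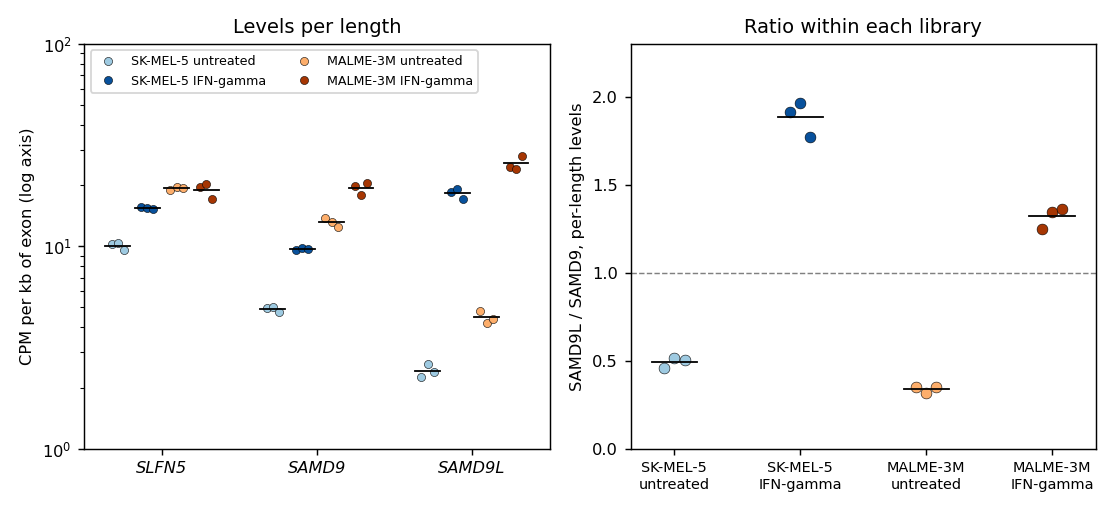
Left, CPM per kb of exon (log axis) of SLFN5, SAMD9 and SAMD9L in each library, with bars at the means; right, the per-length ratio of SAMD9L to SAMD9 in each library (linear axis from 0, dashed line at 1). The ratio lies between 0.316 and 0.518 in untreated libraries and between 1.25 and 1.97 in treated ones.

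SLFN5, a nuclear family member known as a repressor of interferon-stimulated transcription, responded in SK-MEL-5. Its level there was 109.6, 111 and 103 CPM without treatment and 168, 165 and 163 CPM with it. All treated libraries were above all untreated ones, with a log2 fold change of 0.62 ± 0.057 (edgeR adjusted p = 1.9e-07). In MALME-3M the level was 204, 211 and 207 CPM without treatment and 210.5, 217 and 184 CPM with it. These groups overlapped, and the log2 fold change was -0.02 ± 0.056 (adjusted p = 0.822). Untreated MALME-3M was higher than either SK-MEL-5 group.

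SLFN12, an RNase that is activated when small molecules join it to the phosphodiesterase PDE3A, was far lower than SLFN5 and rose modestly. SK-MEL-5 had 6.81, 7.44 and 7.55 CPM without treatment and 11.6, 10.3 and 8.92 CPM with it, a log2 fold change of 0.50 ± 0.15 (adjusted p = 0.0312). MALME-3M had 9.02, 5.79 and 7.86 CPM without treatment and 12.3, 10.8 and 11.8 CPM with it, a log2 fold change of 0.62 ± 0.15 (adjusted p = 0.00569). In both lines the groups did not overlap, though the gap in SK-MEL-5 was small. The SK-MEL-5 result missed the threshold without untreated replicate 1, 2 or 3 or treated replicate 1 or 2, at log2 fold changes of 0.46, 0.52, 0.53, 0.41 and 0.50 and adjusted p from 0.0608 to 0.147. With transcript-level estimated counts neither line passed, at 0.72 (adjusted p = 0.426) and 0.68 (adjusted p = 0.367).

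SLFN13, an endoribonuclease of tRNA and rRNA, was at the edge of detection in SK-MEL-5. It had 2, 2 and 2 counts without treatment there and 7, 6 and 10 counts with it, or 0.106 ± 0.019 and 0.439 ± 0.18 CPM (SD, n = 3). The fitted log2 fold change was 1.97 ± 0.55 (adjusted p = 0.0208), on 6 counts against 23 over the groups. The gene reached the read minimum only through the MALME-3M libraries, and with the SK-MEL-5 groups fitted by themselves it was not tested. Without untreated replicate 2 or 3 or treated replicate 3 it was 1.85, 1.95 and 1.62, at adjusted p of 0.0812, 0.0568 and 0.108. With transcript-level estimated counts it was 0.55 (adjusted p = 0.707). MALME-3M had 67, 75 and 79 counts without treatment and 83, 106 and 168 with it, which is 4.03, 4.52 and 4.11 CPM against 4.99, 4.96 and 7.54 CPM. The groups did not overlap, but the fitted log2 fold change of 0.47 ± 0.22 did not pass (adjusted p = 0.159). The third treated library stood above the other 2.

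SLFN11, which binds stalled replication forks with RPA and sensitises cells to DNA-damaging drugs, was barely detected in either line. Its counts were 6, 4 and 3 in untreated SK-MEL-5 and 10, 7 and 9 with IFN-gamma, and 2, 6 and 5 in untreated MALME-3M and 2, 10 and 10 with IFN-gamma. Group means lay between 0.237 and 0.484 CPM, and treated and untreated libraries overlapped in both lines. In the fit with no read minimum its log2 fold change was 1.05 ± 0.68 in SK-MEL-5 (edgeR adjusted p = 0.607) and 0.51 ± 0.69 in MALME-3M (adjusted p = 0.792). Of the distinct 100-base windows in its annotated transcripts, 6.28% also occur in SLFN13, and 4.35% of those of SLFN13 occur in SLFN11, so reads there cannot be assigned to one gene, whereas SLFN5, SLFN12, SAMD9 and SAMD9L shared no window with another gene.

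**Figure D3:**
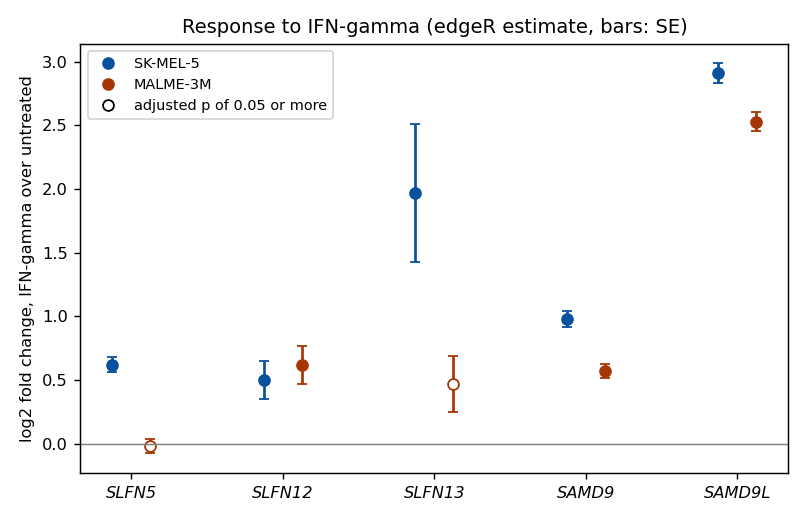
Log2 fold change of IFN-gamma over untreated (edgeR estimate, bars ± SE, 3 libraries a group) for the 5 tested genes in SK-MEL-5 and MALME-3M. Open points did not pass an adjusted p of 0.05: SLFN5 and SLFN13 in MALME-3M, at -0.02 and 0.47.

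As a fold change, the response was smaller in MALME-3M than in SK-MEL-5 for SLFN5, SAMD9 and SAMD9L by the test of the difference itself. No member had a larger response in MALME-3M by that edgeR test (0 also at an unadjusted p under 0.05 and 0 with DESeq2), and 1.79% of all genes tested had a smaller one and 2.67% a larger one. The difference of log2 fold changes, MALME-3M minus SK-MEL-5, was -0.64 ± 0.080 for SLFN5 (adjusted p = 4.8e-05), -0.42 ± 0.082 for SAMD9 (adjusted p = 0.00455) and -0.39 ± 0.10 for SAMD9L (adjusted p = 0.0375). It did not pass for SLFN12 (0.12 ± 0.21, adjusted p = 0.853) or for SLFN13 (-1.50 ± 0.59, adjusted p = 0.19). The SAMD9L difference is close to the threshold and missed it without SK-MEL-5 untreated replicate 1 or 3, SK-MEL-5 treated replicate 1 or 2, MALME-3M untreated replicate 1 or 3, or MALME-3M treated replicate 2, at -0.34, -0.38, -0.38, -0.35, -0.33, -0.39 and -0.34 in that order and adjusted p from 0.0721 to 0.112. With transcript-level estimated counts it was 0.05 ± 0.32 (adjusted p = 1). In CPM the mean rise of SAMD9L and SAMD9 was larger in MALME-3M, and that of SLFN5 was not. Mean SAMD9L went from 31.8 to 183 CPM in MALME-3M and from 17.3 to 131 in SK-MEL-5. Mean SAMD9 went from 90.1 to 133 CPM in MALME-3M and from 33.7 to 66.6 in SK-MEL-5. These rises in CPM had no test.

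**Figure D4:**
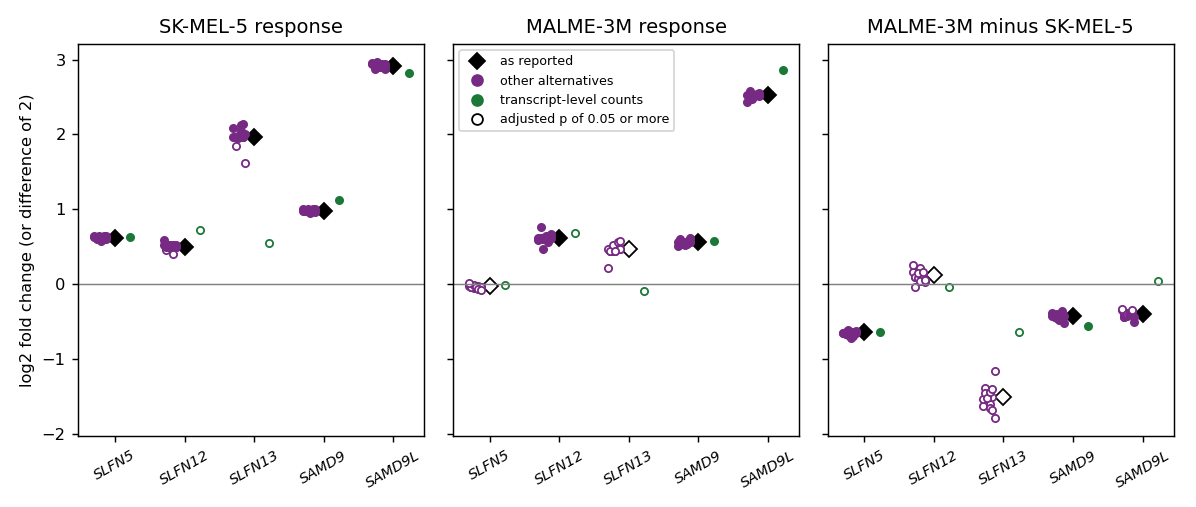
Log2 fold changes of the 5 tested genes in each line, and their difference (MALME-3M minus SK-MEL-5), as reported (diamonds) and under each alternative (circles, spread sideways for visibility). Open symbols have an adjusted p of 0.05 or more; SLFN5 and SAMD9 stay below 0 in the right panel under every alternative run, and SAMD9L reaches 0.05 with transcript-level counts.

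The lines also differed before treatment. SLFN5, SAMD9 and SAMD9L were higher in untreated MALME-3M than in untreated SK-MEL-5. SLFN13 was also called higher, but it reached the read minimum only through the MALME-3M libraries, so its gap is given as a description. No tested member was lower (by edgeR, by DESeq2 or at an unadjusted p under 0.05). In this comparison 34.5% of all genes tested were higher, 37.2% lower and 71.7% different in either direction. The gap of SLFN13 was the widest, 4.22 ± 0.26 against 0.106 ± 0.019 CPM (SD, n = 3), on 221 counts against 6 over the groups. Its log2 difference was 5.26 ± 0.38 (SE), given without a p-value because the gene was kept for testing through its higher group. With transcript-level estimated counts it was 3.30. There the annotated transcripts received 217% as many estimated counts as the gene had reads in untreated SK-MEL-5 and 54.5% in untreated MALME-3M. The log2 difference was 1.42 ± 0.060 for SAMD9 (adjusted p = 7.8e-14), 0.94 ± 0.057 for SLFN5 (adjusted p = 2.2e-11) and 0.87 ± 0.078 for SAMD9L (adjusted p = 6.6e-09). SLFN12 overlapped between the lines, with 0.05 ± 0.15 (adjusted p = 0.761). SLFN11 had 13 counts over 3 libraries in each untreated line.

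With IFN-gamma SLFN5, SAMD9 and SAMD9L were again higher in MALME-3M. SLFN13 was again called higher, on 357 counts against 23 over the groups, and was kept for testing only through MALME-3M. No tested member was lower (by edgeR, by DESeq2 or at an unadjusted p under 0.05). In this comparison 35.4% of all genes tested were higher, 36.4% lower and 71.8% different in either direction. The log2 differences were 0.30 ± 0.057 for SLFN5 (adjusted p = 9.9e-05), 1.00 ± 0.057 for SAMD9 (adjusted p = 8.4e-12) and 0.49 ± 0.068 for SAMD9L (adjusted p = 2.9e-06). That of SLFN13 was 3.76 ± 0.30, given as a description. With transcript-level estimated counts the SLFN5 difference was 0.75 and that of SLFN13 2.66. SLFN12 again overlapped, at 0.17 ± 0.14 (adjusted p = 0.285). Among the 5 tested genes SLFN12 was thus the one whose level showed no difference between the lines that passed in either state. Treated SK-MEL-5 reached 165 ± 2.3 CPM of SLFN5, under the 207 ± 3.3 CPM of untreated MALME-3M.

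On the per-length scale the order of the genes in untreated SK-MEL-5 was SLFN5 (10.1 CPM per kb), SAMD9 (4.92), SAMD9L (2.43), SLFN12 (2.04), SLFN11 (0.0397) and SLFN13 (0.0114). SAMD9L and SLFN12 were neighbours there, at 2.27 to 2.61 and 1.91 to 2.12 CPM per kb. With IFN-gamma the order began with SAMD9L (18.3) and SLFN5 (15.4), followed by SAMD9 (9.72) and SLFN12 (2.89), and SLFN11 (0.0809) and SLFN13 (0.0471) stayed last. In untreated MALME-3M SLFN5 (19.4) led SAMD9 (13.1), SAMD9L (4.46), SLFN12 (2.12), SLFN13 (0.452) and SLFN11 (0.0414). With IFN-gamma MALME-3M had 25.7 CPM per kb of SAMD9L, then SAMD9 at 19.5 and SLFN5 at 19.0, whose libraries overlapped, then SLFN12 (3.28), SLFN13 (0.625) and SLFN11 (0.0578).

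The 6 genes together took 167 ± 5.7 CPM in untreated SK-MEL-5 and 374 ± 10 CPM with IFN-gamma, and 341 ± 4.7 and 538 ± 7.7 CPM in MALME-3M (SD, n = 3). Of their summed per-length level, SLFN5 made up 51.6 ± 0.85% without and 33.2 ± 0.77% with IFN-gamma in SK-MEL-5, and 48.9 ± 1.7% and 28.0 ± 3.1% in MALME-3M. SAMD9L went from 12.4 ± 0.68% to 39.4 ± 1.1% in SK-MEL-5 and from 11.3 ± 0.61% to 37.7 ± 2.1% in MALME-3M. The share of SLFN5 was thus lower and that of SAMD9L higher in the treated libraries of both lines, and these shares had no test.

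At transcript level, 83.2% of the estimated counts of SAMD9 in untreated SK-MEL-5 and 81.0% with IFN-gamma fell on transcript ENST00000379958, and 87.2% and 85.9% in MALME-3M. It was the leading isoform in all 4 group means. SAMD9L counts were spread over several isoforms, led by ENST00000437805 with 44.2% and 63.2% in SK-MEL-5 and 43.3% and 47.8% in MALME-3M. Its share varied from 21.5% to 55.1% among untreated MALME-3M libraries, so no isoform shift is read from these means. The annotated transcripts of SLFN5 received 34.2% and 34.3% as many estimated counts as the gene had reads in SK-MEL-5, and 46.2% and 46.4% in MALME-3M. With these estimated counts the SLFN5 difference between untreated lines was 1.38 on the log2 scale.

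Of the other family genes, SLFN12L, a close relative of SLFN12, had 1 library that stood apart. Its level was 9.35, 0.223 and 0.355 CPM in untreated SK-MEL-5 and 1.71, 2.85 and 3.71 CPM with IFN-gamma, and 0.601, 2.35 and 0.885 CPM in untreated MALME-3M and 4.21, 5.34 and 9.87 CPM with IFN-gamma. Untreated SK-MEL-5 replicate 1, with 147 counts against 5 and 7, was thus above every treated library of that line. With all libraries the log2 fold change was -0.18 ± 0.79 in SK-MEL-5 (edgeR adjusted p = 0.935) and 2.36 ± 0.82 in MALME-3M (adjusted p = 0.0543). Without that library it was 3.22 ± 0.63 (adjusted p = 0.00238) and 2.36 ± 0.42 (adjusted p = 5.4e-04). The difference between untreated lines turned from -1.28 (adjusted p = 0.199) to 2.12 (adjusted p = 0.0113), and the difference of responses from 2.54 (adjusted p = 0.272) to -0.87 (adjusted p = 0.68). Its annotated transcripts received at most 8.57 estimated counts in any library, although the gene table gives up to 220 reads. The promoter entry of SLFN12L held 2 GAS matches (-132 to -124 and -86 to -78), 1 ISRE core (-126 to -117) and 1 relaxed core (-125 to -116). The first GAS match overlaps both cores, so these are not separate sites. All of them lie inside the GENCODE gene, whose start is upstream of the RefSeq start.

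SLFN14, a ribosome-associated endoribonuclease, had 0 counts in untreated SK-MEL-5, which allows up to 0.0512 CPM (3 counts over 3 libraries, counting error only), and at most 4 counts in any library. SLFNL1 had at most 5 counts in any library. Neither was tested.

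Among known partners, PDE3A, the phosphodiesterase that SLFN12 is joined to, varied widely within groups. Its level was 123, 123 and 459 CPM in untreated SK-MEL-5 and 110.5, 102 and 177 CPM with IFN-gamma, and 5.23, 16.3 and 2.45 CPM in untreated MALME-3M and 108, 68.0 and 1.53 CPM with IFN-gamma. Untreated MALME-3M was below untreated SK-MEL-5 without overlap (log2 difference -4.90 ± 0.88, adjusted p = 6.3e-05). That difference was -3.97 with SK-MEL-5 untreated replicate 3 left out and -5.96 with MALME-3M untreated replicate 2 left out. The MALME-3M fold change of 2.90 ± 0.86 passed the test (adjusted p = 0.0244) although the groups overlapped. It missed the threshold without untreated replicate 1 or 3 or treated replicate 1 or 2, at 2.68, 2.44, 2.12 and 2.77, and was 3.96 without untreated replicate 2. With transcript-level counts it was -1.45 (adjusted p = 0.625).

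PDE3B, the related phosphodiesterase, fell by 0.39 on the log2 scale in SK-MEL-5 (adjusted p = 8.6e-04) and by 0.82 in MALME-3M (adjusted p = 9.7e-08). Its libraries were steadier, at 72.1, 76.9 and 81.1 CPM against 61.4, 56.0 and 58.6 CPM in SK-MEL-5 and 65.2, 70.4 and 77.9 CPM against 44.1, 39.1 and 38.1 CPM in MALME-3M. For SLFN11, the RPA subunit RPA1 fell by 0.23 in MALME-3M (adjusted p = 0.0114, and 0.0662 at -0.20 without untreated replicate 2), and RPA2 passed in neither line. ZEB1, a transcription factor that SLFN5 is known to repress in other cells, did not pass with IFN-gamma in either line and was lower in untreated MALME-3M (log2 difference -3.17 ± 0.14, adjusted p = 1.4e-13).

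**Figure D5:**
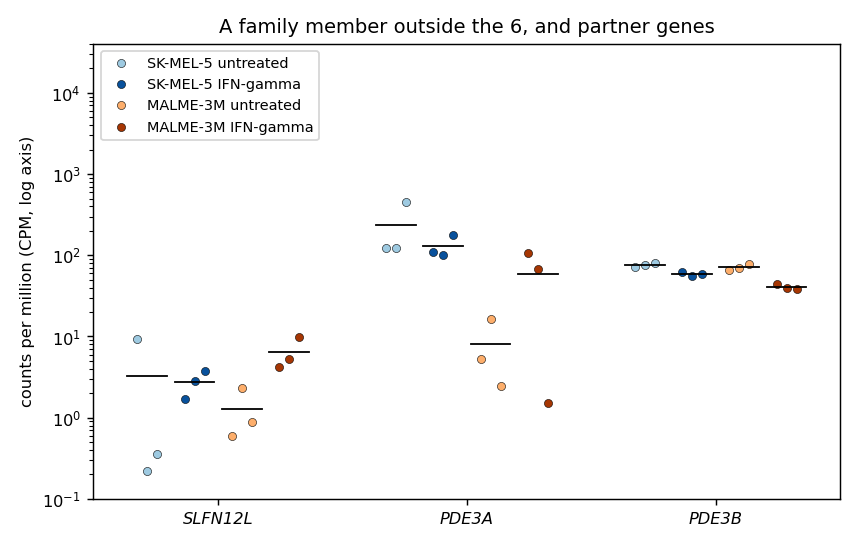
CPM (log axis) of SLFN12L, PDE3A and PDE3B in each library, with bars at the mean of 3 libraries. SLFN12L has 1 untreated SK-MEL-5 library at 9.35 CPM against 0.223 and 0.355, and PDE3A 1 treated MALME-3M library at 1.53 against 108 and 68.0.

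The genes whose log2 CPM followed each member most closely over the 12 libraries are given as a description, since the libraries share line and treatment. SAMD9L ran closest to PARP9 (Pearson r = 0.996), MOV10 (r = 0.994) and UBE2L6 (r = 0.994). SAMD9 ran closest to CASP8 (r = 0.996), TRIM14 (r = 0.993) and AGAP3 (r = 0.989), SLFN5 to CASP1 (r = 0.974), CARD16 (r = 0.965) and FRMD4A (r = 0.963). For SLFN13 they were SOX13 (r = 0.996), PRSS23 and PLEKHG1 (both r = 0.992), and for SLFN12 IRF2 (r = 0.926), SCN9A and ACSL5 (both r = 0.909). Some of these values rest on few reads. SLFN13 had 2 counts in each untreated SK-MEL-5 library. Over the untreated SK-MEL-5 and MALME-3M groups ACSL5 had 4 and 6 counts and SCN9A 24 and 15. SLFN12 had the lowest leading value of the 5.

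The members were set beside 3 gene lists. Over all genes tested 5.98% rose and 7.05% fell in SK-MEL-5, and 9.51% rose and 8.77% fell in MALME-3M. A larger response in MALME-3M was called for 2.67% of all genes tested and a smaller one for 1.79%. Of 14 genes of IFN-gamma signalling, all tested, 10 rose and 1 fell in SK-MEL-5 (median log2 fold change 0.92) and 10 rose and 0 fell in MALME-3M (0.96; 0 fell also with DESeq2 or at an unadjusted p under 0.05), against medians of -0.027 and 0.001 over all genes tested. The 5 tested members had medians of 0.98 and 0.57. The first includes SLFN13 (1.97 on 6 against 23 counts, tested only through MALME-3M). The other SK-MEL-5 values were 0.50, 0.62, 0.98 and 2.91, so that median would be lower without SLFN13. It is therefore not ranked against the 0.92 of the list. IRF1, the interferon regulatory factor that turns on many IFN-gamma targets, rose the most, by 5.35 ± 0.11 and 6.43 ± 0.12, and its response was larger in MALME-3M by 1.08 ± 0.17 (adjusted p = 5.4e-04). The receptor chain IFNGR2 fell by 0.28 in SK-MEL-5 (adjusted p = 0.0196), a call lost without untreated replicate 1 or 2 or treated replicate 3 (-0.27, -0.24 and -0.20). USP18, an inhibitor of interferon signalling, was the one whose response was smaller in MALME-3M, by -1.62 ± 0.14 (adjusted p = 7.7e-07), while 3 were larger. Between untreated lines 5 were higher in MALME-3M and 6 lower, where 34.5% and 37.2% of all genes tested were. The lowest was the feedback inhibitor SOCS1 (-2.85, and -3.81 without MALME-3M untreated replicate 1). SOCS1 had 6 counts in untreated MALME-3M against 51 in untreated SK-MEL-5 over the groups.

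Of 17 genes of antiviral translation and RNA restriction, 16 matched by symbol and were tested. In SK-MEL-5 13 rose and 0 fell by edgeR, by DESeq2 or at an unadjusted p under 0.05 (median 1.24), and in MALME-3M 12 rose and 1 fell (0.59). Over all genes tested 5.98% rose and 7.05% fell in SK-MEL-5, and 9.51% rose and 8.77% fell in MALME-3M. The response was smaller in MALME-3M for 9 of the 16 and larger for 0 (0 also by DESeq2 or at an unadjusted p under 0.05). The median difference was -0.72, against 0.024 over all genes tested, of which 1.79% had a smaller and 2.67% a larger response. For the members the response was smaller for 3 of 5 (median -0.42, SLFN13 included). OAS2, which senses double-stranded RNA, rose the most in SK-MEL-5 (6.16 ± 0.15) and had the largest reduction, -3.14 ± 0.21 (adjusted p = 1.1e-08), which was -1.83 (adjusted p = 0.0214) with transcript-level estimated counts. In MALME-3M the fitted value was highest for OASL, at 3.56 ± 0.86 (adjusted p = 0.00612) on 2 counts against 32 over the groups, and OAS2, at 3.03 ± 0.10, lay within its SE. With estimated counts OASL was 2.08 and did not pass (adjusted p = 0.364). Between untreated lines 10 were higher in MALME-3M and 2 lower, with OAS2 (3.87, and 2.46 with estimated counts) and ADAR (-1.24) at the ends. Of all genes tested 34.5% were higher and 37.2% lower. With IFN-gamma 4 of the 16 were higher in MALME-3M and 11 lower (median -0.52), against 35.4% and 36.4% of all genes tested. Among the members 4 were then higher, SLFN13 included, and 0 lower (median 0.49).

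Of 20 genes of the replication stress checkpoint, the setting in which SLFN11 is known to act, none rose or fell in SK-MEL-5 by edgeR and the median was -0.06. There 0 were higher and 3 lower at an unadjusted p under 0.05, and DESeq2 called 0 higher and 1 lower. In MALME-3M 1 rose and 4 fell (median -0.05). Over all genes tested 5.98% rose and 7.05% fell in SK-MEL-5, and 9.51% rose and 8.77% fell in MALME-3M. CHEK2, a checkpoint kinase, was the one that rose (0.26 ± 0.082, adjusted p = 0.0343), a call lost under every other scaling and tool run and without untreated replicate 1 or 3 or treated replicate 1 or 3 (0.23, 0.24, 0.19 and 0.24). WEE1, a kinase that holds back mitotic entry, fell the most, by 0.40 (adjusted p = 2.8e-04). Between untreated lines 4 were higher in MALME-3M and 10 lower, from SMARCAL1 (0.49) to CUL4A (-1.34). Of all genes tested 34.5% were higher, 37.2% lower and 71.7% different in either direction. Nothing particular to this list is read from these counts.

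Neighbouring genes were counted by the same tests. Within 250 kb of the Schlafen cluster (chr17:35243036-35558098) 8 annotated neighbours were tested, none passed in SK-MEL-5 (0 also at an unadjusted p under 0.05 and 0 with DESeq2), and 1, TAF15, passed in MALME-3M (-0.38 ± 0.094, adjusted p = 0.00728), a call lost without untreated replicate 1 (-0.25, adjusted p = 0.0611). Over all genes tested the share called was 5.98% higher and 7.05% lower in SK-MEL-5 and 9.51% higher and 8.77% lower in MALME-3M, so that nothing particular to these 8 is read from the counts. Between the lines 6 of the 8 passed without treatment and 7 of the 8 with it, where 71.7% and 71.8% of all genes did. Of the 4 annotated neighbours of the SAMD9 pair (chr7:93099513-93148369) only VPS50 was tested, and its log2 fold change was -0.08 ± 0.076 in SK-MEL-5 (adjusted p = 0.594) and 0.15 ± 0.074 in MALME-3M (adjusted p = 0.191).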

How the data were processed

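Total RNA of 12 wells was made into libraries with Pico V3 and sequenced in paired reads on a NovaSeq, per the labels' protocols. Per the submitters' processing notes, cutadapt, STAR, SAMtools, kallisto and HTSeq were used with hg38; the labels name no versions and no strand setting, so reads of genes that overlap on opposite strands may be mixed. The authors deposited HTSeq gene counts (whole numbers, not normalized) and kallisto tables with estimated counts and TPM per transcript. In the gene tables, reads that HTSeq assigned to no gene (53.3% to 85.0% of the gene counts), ambiguous reads (4.19% to 4.54%) and multi-mapped alignments (7.47 to 13.7 per gene count) were left out. The deposited TPM was used only for a check: the top transcript took 46.6% to 57.7% of it. The estimated counts were rounded and used for isoform shares and 1 alternative; 44.8% to 50.1% of them lay on assembled transcripts without a gene name.

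Counts were fitted with edgeR 4.0.16 in R 4.3.3 (TMM, filterByExpr with a minimum count of 10, 1 mean per group, quasi-likelihood F test, two-sided, 15810 genes, 8 residual degrees of freedom, Benjamini-Hochberg adjustment, threshold 0.05). SE is the fold change divided by the root of F and is too small for genes with few counts. CPM uses TMM-scaled library totals, and lengths are GENCODE 29 exon unions. Alternatives were RLE and upper-quartile scaling, DESeq2 1.42.0, no read minimum, only the groups compared, estimated counts, and each library left out. On counts simulated for the SK-MEL-5 comparison (14613 genes, a biological coefficient of variation of 0.1 where the fitted common value was 0.0955, changes placed in well-counted genes) 74.6% of 1.5-fold and 100% of 2-fold changes were recovered, with 3 false calls. The 12 pairs of libraries within groups all differed beyond counting noise (chi-square per degree of freedom 6.35 to 19.3).

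The members and gene lists were chosen with earlier results of these data known. Named besides the members were family genes, known partners, the 3 tested genes with the highest correlation to each member, the largest rise and fall of each list, and neighbours within 250 kb. One listed symbol, SHFL, did not match. Some genes that this rule names are not reported here. Replicate numbers follow accession order and pair nothing.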

Additional observations from a re-analysis of the deposited data

Results flagged for a closer look

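The response to IFN-gamma differed between the lines for 3 of the 5 tested members, by the edgeR test of the difference of log2 fold changes, MALME-3M minus SK-MEL-5. The value was -0.64 for SLFN5 (adjusted p = 4.8e-05), whose level rose in all 3 treated SK-MEL-5 libraries above all untreated ones and overlapped in MALME-3M. It was -0.42 for SAMD9 (adjusted p = 0.00455) and -0.39 for SAMD9L (adjusted p = 0.0375), both of which rose in each line. Over all genes tested 2.67% had a larger and 1.79% a smaller response in MALME-3M. The SAMD9L call was lost in 7 of the 12 fits with 1 library left out, and its value was 0.05 (adjusted p = 1) with estimated counts. Dose, medium and line differed together in this comparison and cannot be told apart.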

How the results depend on the processing

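Of the log2 fold changes of the 5 tested members, 418 of 444 values under the alternatives kept their direction and side of the threshold, 20 lost the call and 6 changed sign. The number of members that rose in SK-MEL-5 was 5, was 4 (without SLFN13) with only the SK-MEL-5 groups, was 3 with estimated counts (SLFN5, SAMD9 and SAMD9L), and ranged from 3 to 5 with 1 library left out. The counts in MALME-3M (2 to 3), between untreated (3 to 4) and treated lines (3 to 4) and of smaller responses (2 to 3) stayed within 1.5 times. Sign changes with estimated counts were SLFN12 (-0.04) and SAMD9L (0.05) in the difference of responses, SLFN13 in MALME-3M (-0.09) and PDE3A in MALME-3M (-1.45). With 1 library left out, SLFN5 in MALME-3M ran from -0.07 to 0.02, the SLFN12 difference of responses from -0.03 to 0.26, its untreated line difference from -0.09 to 0.21, and the neighbour VPS50 in SK-MEL-5 from -0.15 to 0.00. SLFN12L ran from -0.79 to 3.22 in SK-MEL-5, from -0.87 to 3.29 in the difference of responses and from -2.03 to 2.12 between untreated lines. The cause of these changes was not tested. With estimated counts SAMD9L also missed the threshold between untreated (0.45, adjusted p = 0.144) and treated lines (0.50, adjusted p = 0.0631). Other calls lost with estimated counts included SLFN12 in SK-MEL-5 (0.72) and MALME-3M (0.68), SLFN13 (0.55) and PDE3B (-0.34) in SK-MEL-5, WEE1 (-0.30), RPA1 (-0.49), TAF15 (-0.20) and OASL (2.08) in MALME-3M, and the differences of responses of IRF1 (0.96) and USP18 (-1.27). With DESeq2 PDE3A in MALME-3M was 2.87 (adjusted p = 0.0568). SLFN11 in all groups and SLFN13 in SK-MEL-5 had at most 10 counts a library, and the effect of depth on them was not tested. No paired analysis was possible because the labels give no replicate numbers.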
